A study of Mus musculus with 2 samples.

Results

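Far distal islands are stretches of clustered reads that lie in the wide spaces between genes. The deposited table of anti-TCF-1 ChIC-seq islands holds 19531 islands on mouse build mm10, and 1085 of them were far distal. An island was counted as far distal when it lay on a nuclear chromosome, had a peak-library count below 200 reads, and had its midpoint more than 50 kb from the body of every RefSeq protein-coding gene. These islands made up 5.56% of the 19513 nuclear islands under that read limit. The rule used position and an upper read limit, and no ratio between the libraries. Every island of the table held at least 7 peak-library reads, while control-library counts began at 0. Raw control-library reads equalled or exceeded peak-library reads in 57 of the 19531 islands. Counts higher in the peak library were thus favoured by how islands entered the table.

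In ChIC-seq an antibody against a chromatin protein carries micrococcal nuclease to the sites of that protein, and the released DNA is sequenced. Each library came from 500 C57BL/6 LTi cells, sorted as lineage-negative CD127+ CCR6+ cells without KLRG1, NK1.1 or NKp46, fixed in 1% formaldehyde and treated with anti-TCF-1 bound to protein A-micrococcal nuclease. There was 1 library of Tcf7fl/fl-VavCre cells from small intestine lamina propria and 1 library of Tcf7+/+ cells from Peyer's patches. Vav-Cre acts in haematopoietic cells, so other cells of these mice keep Tcf7. Genotype and tissue differed together and cannot be told apart, and no group has a replicate. For each island the table gives peak-library reads and control-library reads, but its header names no sample, so neither column was tied to a genotype and no direction between genotypes was drawn. ChIC-seq reads do not measure Tcf7 RNA or protein, so the deletion itself was not checked.

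TCF-1 is an HMG-box transcription factor that binds short A/T-rich words in the minor groove of DNA and acts in the Wnt pathway with beta-catenin. LTi cells are innate lymphoid cells that start the formation of lymph nodes and Peyer's patches. In lymphocytes, enhancers can lie far from the gene on which they act, and the wide noncoding spaces beside lineage genes such as Id2, Myc and Gata3 are known to hold such elements. The nearest gene of an island is a matter of position and does not name the gene on which a region acts.

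Islands over the whole table were counted at a few chosen marker genes, over the gene and 10 kb on either side. There were 7 islands at Kit, 16 at Il1r1, 15 at Rora, 7 at Il23r and 5 at Il7r, all receptors or regulators of LTi cells. The epithelial genes Epcam and Vil1 and the myeloid gene Csf1r had 0 islands. By position alone, the myeloid gene Cebpb and the B cell gene Cr2 were nearest to far distal islands. Those islands lay 71.9 and 85.6 kb from Cebpb and 64.9 kb from Cr2, outside the 10 kb used for the marker counts. Islands within 10 kb of Cebpb and Cr2 were not counted here. No share over all genes was set beside the marker counts, and islands do not measure expression. The sorted cell type was therefore not tested by them. The table holds 483771 peak-library and 189291 control-library reads in islands. Of the reads in all nuclear islands under the read limit, far distal islands took 5.02% in the peak library and 4.22% in the control library. Library depth beyond the islands is unknown, since the table counts reads in islands alone. All intervals given are 95% intervals that cover counting error only, because reads amplified by PCR without molecular identifiers are not independent molecules.

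Of the promoter windows in the RefSeq table used, 88 windows of 72 genes of types other than protein-coding were overlapped by 69 far distal islands. A window is 300 bases, 250 before to 50 after a transcript start, from RefSeq on assembly GRCm38.p6, which is the mm10 build. The motif searched was the word CTTTGAA, the word CTTTGAT, the word CTTTGTA or the word CTTTGTT on both strands, letters to which TCF/LEF factors bind. It stood in 19 of the 88 windows (21.6%, interval 13.5 to 31.6%), against 16.9% of all 32851 windows of the table and 20.8% of the 11588 windows of long noncoding RNAs (lncRNAs). Both shares lay inside the counting interval of the overlapped windows. The windows below are shown 5′ to 3′ on the strand of the transcript, with matches in capitals. They were chosen after their values were seen, to show a window with several matches, 2 windows with 1 match in the space between Irf2bp2 and Tomm20, and windows without a match under an island of few control reads and under the widest island. A match describes the letters only, and a window without one says nothing of the factor.
Gm13982: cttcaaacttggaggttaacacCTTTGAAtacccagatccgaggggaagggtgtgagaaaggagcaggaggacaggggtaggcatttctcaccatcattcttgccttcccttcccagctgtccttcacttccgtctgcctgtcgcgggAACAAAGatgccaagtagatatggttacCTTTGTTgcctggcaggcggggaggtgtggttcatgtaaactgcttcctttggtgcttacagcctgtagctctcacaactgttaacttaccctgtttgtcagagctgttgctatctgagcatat
A630001O12Rik: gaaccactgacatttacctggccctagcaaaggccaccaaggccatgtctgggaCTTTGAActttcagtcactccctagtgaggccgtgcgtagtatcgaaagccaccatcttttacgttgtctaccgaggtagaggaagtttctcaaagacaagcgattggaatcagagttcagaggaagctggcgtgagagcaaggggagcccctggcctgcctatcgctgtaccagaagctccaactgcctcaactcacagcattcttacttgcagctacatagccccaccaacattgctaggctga
Gm31603: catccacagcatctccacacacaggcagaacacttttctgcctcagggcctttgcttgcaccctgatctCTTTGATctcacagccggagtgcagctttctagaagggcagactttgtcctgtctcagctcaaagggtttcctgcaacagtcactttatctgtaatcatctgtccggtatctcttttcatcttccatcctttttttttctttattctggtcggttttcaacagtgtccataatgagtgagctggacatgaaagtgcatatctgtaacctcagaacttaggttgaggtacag
Gm38673: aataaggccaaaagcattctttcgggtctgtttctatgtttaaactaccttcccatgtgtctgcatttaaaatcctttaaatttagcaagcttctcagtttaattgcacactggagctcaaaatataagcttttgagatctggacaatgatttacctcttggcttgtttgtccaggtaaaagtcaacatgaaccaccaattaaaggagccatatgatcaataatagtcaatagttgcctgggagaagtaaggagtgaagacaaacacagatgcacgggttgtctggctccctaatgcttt
2210408F21Rik: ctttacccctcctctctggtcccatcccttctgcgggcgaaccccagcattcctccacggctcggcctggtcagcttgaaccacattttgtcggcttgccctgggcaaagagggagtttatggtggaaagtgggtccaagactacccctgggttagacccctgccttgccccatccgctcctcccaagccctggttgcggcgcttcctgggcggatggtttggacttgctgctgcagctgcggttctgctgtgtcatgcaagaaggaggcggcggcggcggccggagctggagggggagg

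The window of the lncRNA Gm13982 (chr2:117417648-117417947, minus strand) had 3 matches and lay under an island with 23 peak-library and 7 control-library reads, nearest to Rasgrp1, which activates Ras in lymphocytes. The window of A630001O12Rik (chr8:126848770-126849069, plus strand) had 1 match under an island with 39 peak-library and 20 control-library reads. The window of Gm31603 (chr8:126729701-126730000, minus strand) had 1 match and shared 100 bases with an island of 21 peak-library and 2 control-library reads. Raw peak-library reads outnumbered control-library reads in each of these islands, as in all but 57 of the 19531 islands. With control-library reads scaled by the authors' factor of 2.00, the island of A630001O12Rik had a fold of 0.977. No match stood in the window of Gm38673 (chr1:80427920-80428219, plus strand), whose island held 27 peak-library reads and 1 control-library read and was nearest to Dock10, a guanine nucleotide exchange factor of lymphocytes. Nor did one stand in the window of 2210408F21Rik (chr6:31220101-31220400, plus strand), under an island of 6400 bp with 102 peak-library and 35 control-library reads. The printed windows were picked to include some with and some without a match, so these read counts are examples and allow no comparison by match.

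Read counts in single far distal islands were low. The peak library gave a median of 14 reads per island (quartiles 11 and 20, range 7 to 197), and the control library a median of 3 reads (quartiles 1 and 5, range 0 to 125). The control library had 0 reads in 110 far distal islands (10.1%) and in 1002 of the 18428 other nuclear islands (5.44%), and 10 or more reads in 101 far distal islands (9.31%) and in 3620 of the others (19.6%). Far distal islands thus sat lower on the control-library scale than the other islands, which had a median of 16 peak-library and 5 control-library reads. Among those others, the 1733 islands at 10 to 50 kb from a gene came close to the far distal islands. Their median was 14 peak-library and 3 control-library reads, with 0 control-library reads in 9.12% and 10 or more in 11.6%. Low control-library counts were thus not particular to islands past 50 kb. Island width did not separate far distal islands from the others, with a median of 1400 bp in both.

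Summed over the 1085 far distal islands, the peak library held 19391 reads and the control library 5030 reads, a raw ratio of 3.86. The authors' fold divides peak-library reads by control-library reads times 1 library scaling factor of 2.00, and on that scale the pooled fold was 1.93 (1.87 to 1.99) in far distal islands. The 18428 other nuclear islands held 366805 peak-library and 114277 control-library reads, a pooled fold of 1.61 (1.60 to 1.62). The far distal fold was 1.20 times that of the others (1.16 to 1.24), a ratio in which the scaling factor cancels. The median of the folds in the authors' deposited table was 2.50 in far distal islands (quartiles 1.5 and 5.01) and 1.84 in the others (1.25 and 3.00). These intervals describe a pair of libraries, and with 1 library per group there is no replicate error to set beside them.

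The authors' deposited table gives a false discovery rate (FDR) per island, which takes the control-library count as known. At an FDR of 0.05 or less, 800 far distal islands were called (73.7%, 71.0 to 76.3%). The share was 62.5% over all islands of the table and 68.9% at 10 to 50 kb from a gene. At 1e-05 or less, 340 far distal islands were called (31.3%), against 20.7% of all islands and 25.7% at 10 to 50 kb. The fold in that table was 2 or more in 691 far distal islands (63.7%), against 47% of all islands, and below 1 in 69 (6.36%), against 10.2%. An exact binomial test, two-sided and adjusted over all islands by Benjamini-Hochberg, takes both counts as uncertain and compares these libraries, not conditions. It called 10 far distal islands at an adjusted p of 0.05 or less, 9 with the peak library higher (0.829%, against 0.302% of all islands) and 1 with the control library higher (against 0.0717% of all islands). With the read totals of the libraries set equal it called 2, and 297 passed before adjustment. Single far distal islands were thus rarely distinguishable between the libraries at this depth, and the statements on sums rest on many islands together. Every island entered the table with 7 or more peak-library reads, so calls with the peak library higher were favoured in advance.

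Control-library counts were also lower at equal peak-library counts. Among islands with the same number of peak-library reads, the mean control-library count was lower in far distal islands than in the others at 23 of the 24 values from 7 to 30 reads that had 5 or more far distal islands. At 11 peak-library reads, the 123 far distal islands averaged 2.12 control-library reads and the 1493 others 2.77. At 20 peak-library reads, the 22 far distal islands averaged 4.09 control-library reads and the 544 others 6.27. The exception was at 25 peak-library reads, with a mean of 8.23 in 13 far distal islands and 8.12 in 394 others. Islands at 10 to 50 kb from a gene were not set apart among these others. In the islands with 20 or more peak-library reads the pooled fold was 1.64 in far distal islands and 1.48 in the others, a ratio of 1.11 (1.06 to 1.16), and below 20 reads it was 2.28 and 1.83, a ratio of 1.25 (1.19 to 1.31). Peak-library and control-library reads were also correlated across islands within these libraries, which share both depths. Spearman's rho was 0.572 over the 1085 far distal islands and 0.705 over the 18428 others. Pearson's correlation had the other order, 0.851 in far distal islands and 0.809 in the others. It was 0.686 in the 1078 far distal islands with under 50 control-library reads.

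**Figure D1:**
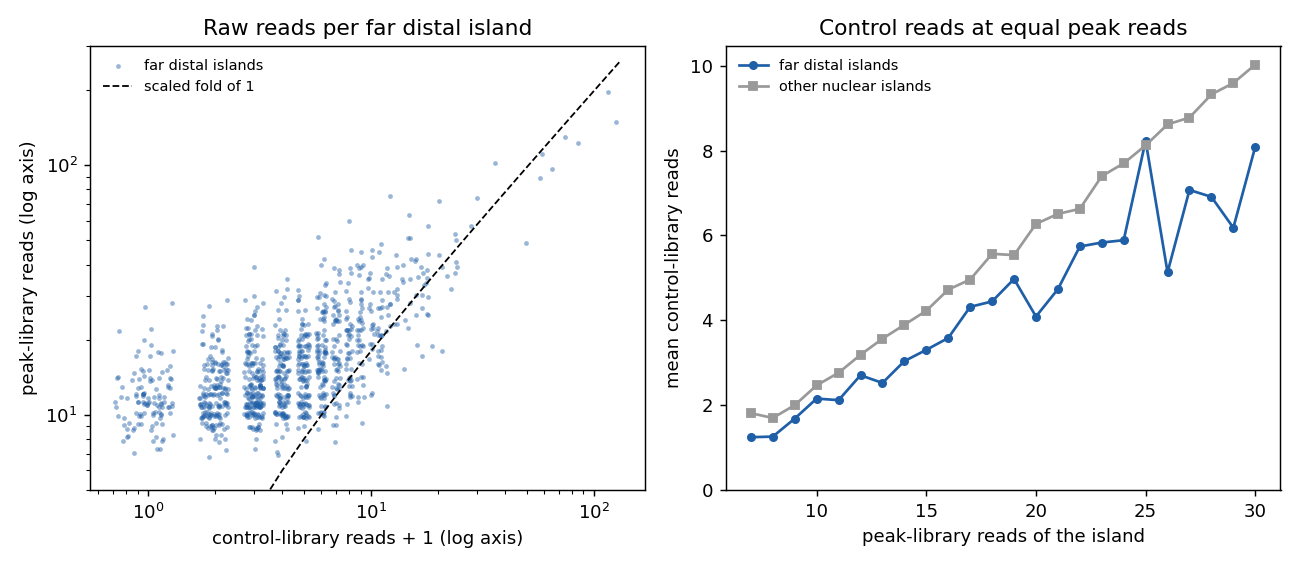
Left, peak-library reads against control-library reads plus 1 for each of the 1085 far distal islands, both on log axes, with a small horizontal and vertical scatter added so that equal counts can be seen, and a dashed line where the scaled fold is 1. Right, the mean control-library reads of islands with equal peak-library reads, from 7 to 30, in far distal islands (blue) and the other nuclear islands (grey), where blue lies under grey at 23 of 24 values.

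Within the far distal islands the fold showed no steady change with the distance from genes. It was 1.96 (1.88 to 2.05) in the 535 islands at 50 to 100 kb, 1.94 (1.84 to 2.05) in the 364 islands at 100 to 200 kb, 1.79 (1.66 to 1.94) in the 162 islands at 200 to 500 kb and 2.27 (1.76 to 2.97) in the 24 islands over 500 kb from a gene. Islands over 100 kb away had 0.969 times the fold of those at 50 to 100 kb (0.910 to 1.03), an interval that includes 1. Nearer to genes, the fold was 1.85 (1.80 to 1.89) in the 1733 islands at 10 to 50 kb, 1.53 in the 4676 islands outside genes within 10 kb, and 1.61 in the 12019 islands inside a gene body. The far distal fold was 1.05 times that of the islands at 10 to 50 kb (1.01 to 1.09), so the islands on either side of the 50 kb limit were close to each other. The 17 islands just inside the limit, at 50 to 51 kb, held 299 peak-library and 83 control-library reads, and the 20 just outside it, at 49 to 50 kb, held 325 and 67 reads.

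**Figure D2:**
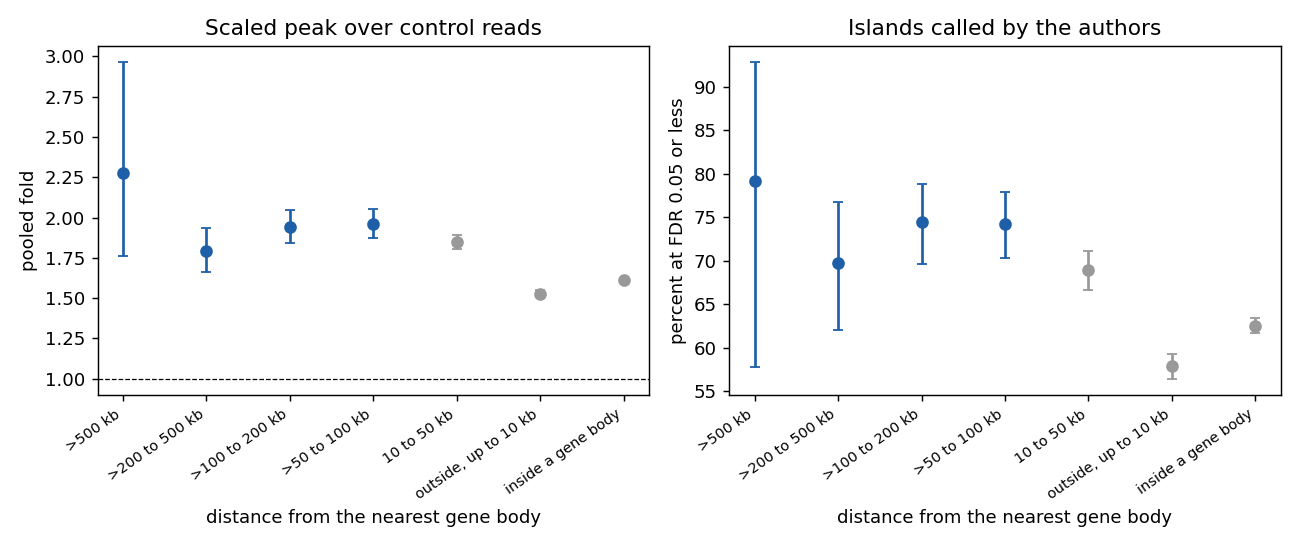
Left, the pooled fold (scaled peak-library over control-library reads) and, right, the percent of islands at the authors' FDR of 0.05 or less, by distance from the nearest protein-coding gene body, with far distal classes in blue and the others in grey. Bars are 95% intervals for counting error, and all 4 far distal classes lie above the classes inside genes and within 10 kb in the left panel. The class at 10 to 50 kb (1.85) lies among them, above the far distal class at 200 to 500 kb (1.79).

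A few far distal islands with high counts in both libraries pulled the sums the other way. The 7 islands with 50 or more control-library reads held 894 peak-library and 575 control-library reads, a fold of 0.779 (0.700 to 0.866). They included an island nearest to Vmn1r238 at the start of chromosome 18 with 197 peak-library and 115 control-library reads, and an island nearest to Axin2 (chr11:109011601-109012200) with 149 and 125 reads. Axin2, a Wnt target gene that encodes a scaffold of the beta-catenin destruction complex, was thus the nearest gene of the only far distal island that the binomial test called with the control library higher (fold 0.597, 0.467 to 0.763, adjusted p = 0.0155). Among the rest were islands nearest to Pex2 (130 and 73 reads), Tcte2 (122 and 84 reads), Cr2 (111 and 58 reads) and Stmn2 (96 and 64 reads). Without the 7 islands, a setting chosen after seeing the data, the far distal fold was 2.08 (2.01 to 2.15). A further 8 islands at far positions held 200 or more peak-library reads and were left out by the rule. Their folds ran from 0.744 to 0.962, all below 1, and the largest, nearest to Lrrc4c on chromosome 2, held 28574 peak-library and 19227 control-library reads. With these 8 islands included, the far distal fold came to 0.945 and its ratio to the other islands, which then had no read limit either, to 0.598.

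The far distal islands with the most uneven counts lay beside genes of several kinds. An island nearest to Zc3h12c (chr9:52258801-52260600), which encodes a zinc finger ribonuclease of the regnase family, held 28 peak-library and 0 control-library reads, and an island nearest to Inhba (chr13:16225601-16229000), the gene of the activin A subunit, held 27 and 0 reads. Against a floor of 3 control-library reads per island they were at least 4.67-fold and at least 4.51-fold higher in the peak library. Taking both counts as uncertain, the exact lower bounds were 3.56-fold and 3.42-fold, with adjusted p-values of 0.0139 and 0.0155 in the exact binomial test. The islands nearest to Saraf (chr8:34275801-34277000), a regulator of calcium entry, and to Gm14461 (chr2:78548001-78549400) each held 22 peak-library and 0 control-library reads, at least 3.67-fold higher against the floor of 3 control-library reads, with an exact lower bound of 2.74-fold (adjusted p = 0.0460, exact binomial). The island nearest to Avpr1a (chr10:122379001-122381000), a vasopressin receptor, held 29 peak-library reads and 1 control-library read, a fold of 14.5 with an interval from 2.41 to 593 (adjusted p = 0.0422, exact binomial). These intervals are wide, since a few control-library reads set the denominator.

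Islands with more reads gave narrower intervals. An island of 5000 bp nearest to Foxq1 (chr13:31501801-31506800), a forkhead transcription factor gene, held 75 peak-library and 11 control-library reads, a fold of 3.41 (1.80 to 7.13). An island nearest to Ankrd50 (chr3:38280001-38284400) held 60 and 7 reads, a fold of 4.29 (1.96 to 11.1), and 1 nearest to Etnk1 (chr6:143392601-143395200), an ethanolamine kinase gene, held 52 and 5 reads, a fold of 5.21 (2.09 to 16.7). An island nearest to Kynu (chr2:43335601-43338200), which encodes kynureninase of tryptophan breakdown, held 39 and 2 reads, a fold of 9.77 (2.53 to 83.5). All 4 passed the exact binomial test, with adjusted p-values from 0.0139 to 0.0155. Other islands with 20 or more peak-library reads and few control-library reads did not pass it and lay nearest to Dmrta1 (20 and 0 reads), Dock10 (27 and 1), Lmo4 (25 and 1), Bcl6, P2ry1 and B3glct (23 and 1 each).

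The widest far distal islands were not those with the highest folds. The island of 6400 bp nearest to Mkln1, over the start of Lncpint, held 102 peak-library and 35 control-library reads, a fold of 1.46 (0.985 to 2.21). The island of 6400 bp nearest to Fasl, the gene of the Fas ligand (chr1:161703001-161709400), held 72 and 19 reads, a fold of 1.90 (1.13 to 3.33), and the island of 6200 bp nearest to Gvin1 held 53 and 23 reads, a fold of 1.15 (0.695 to 1.97). The farthest island lay 2138 kb from Cntnap5b on chromosome 1 and held 17 peak-library and 16 control-library reads, a fold of 0.532 (0.253 to 1.13). The next farthest lay 1132 kb from Cited2 (11 peak-library reads and 1 control-library read) and 1056 kb from Zfp386 within the immunoglobulin heavy chain locus (16 and 4 reads). The lowest folds stood at islands nearest to Alkbh8 (18 and 20 reads, fold 0.451), Prex1 (11 and 11 reads, 0.501), Samd9l (49 and 49 reads, 0.501) and Adgrl2 (19 and 18 reads, 0.529).

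Islands were sparse in the space far from genes. The positions more than 50 kb from a protein-coding gene, called far territory here, covered 1006 Mb, 37.4% of the span between the outermost genes of the chromosomes, and held 1073 far distal islands, or 1.07 per Mb (1.00 to 1.13). The remaining 1685 Mb held 18420 islands, or 10.9 per Mb, a density ratio of 0.0976 between far and other territory. The other 12 far distal islands lay beyond the outermost gene of a chromosome. The median distance from an island to its nearest gene was 102 kb (quartiles 68.2 and 170 kb). Of the 2967 spaces between neighbouring genes that were wider than 100 kb, 430 (14.5%) held a far distal island, and 13 spaces with 10 or more islands held 190 of them (17.5%).

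The islands were unevenly spread over genes. The 1085 islands had 514 different nearest genes, 10.8% of the 4773 protein-coding genes that border far territory. Of these, 292 genes had 1 island, 179 had 2 to 4, and 43 had 5 or more, and those 43 took 332 islands (30.6%). The 15 genes with the most islands took 168 (15.5%). Genes next to a far distal island also had islands closer by. Of the 514 genes, 416 (80.9%) had at least 1 island in the body or within 50 kb, against 1860 of the 4259 other bordering genes (43.7%), and 167 had more far distal than near islands. Strand was known for the nearest gene of 818 islands and unknown for 267. Of the 818, 492 (60.1%, 56.7 to 63.5%) lay upstream of the gene and 326 downstream. The interval counts islands as independent, but islands of 1 gene often shared a side, such as 15 upstream of Id2 and 12 upstream of Atp2b1. No upstream share of the other islands was set beside it.

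Btg1, an antiproliferative gene of quiescent lymphocytes, had the most far distal islands, 17 with 356 peak-library and 118 control-library reads, a pooled fold of 1.51 (1.22 to 1.88). They fell on both sides of the gene, 12 upstream at 52.0 to 248 kb and 5 downstream at 68.4 to 123 kb. Peak-library counts per island ran from 11 to 39 with a median of 18, and control-library counts from 1 to 21 with a median of 6. Within 50 kb of Btg1 there were 4 islands, with 167 peak-library and 68 control-library reads. The neighbouring gene on that side, Eea1, which encodes an early endosome tether, had 8 far distal islands with 163 and 40 reads, and all 8 were at an FDR of 0.05 or less in the authors' deposited table.

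Id2, whose product holds back E proteins and is needed for the development of innate lymphoid cells, had 15 far distal islands, all upstream, between 68.7 and 347 kb from the gene. From the nearest to the farthest, the peak library gave 14, 11, 30, 10, 42, 9, 16, 16, 20, 13, 27, 13, 15, 16 and 11 reads, and the control library 0, 1, 5, 5, 15, 3, 2, 1, 6, 3, 5, 6, 3, 3 and 0 reads. Both libraries had their highest count at the island 145 kb from the gene. The peak library was higher in raw reads at each island, as in all but 57 of the 19531 islands. On the scale of the authors' fold, the lowest values were 1.00 (10 and 5 reads) and 1.09 (13 and 6 reads). Their FDRs were 0.475 and 0.372. In sum the 15 islands held 263 peak-library and 58 control-library reads, a pooled fold of 2.27 (1.70 to 3.07). Id2 had 2 islands within 50 kb, with 113 and 31 reads, so most of its islands were far distal.

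Tnfaip3, which encodes the NF-kB inhibitor A20, had 13 far distal islands, 12 of them upstream within 51.1 to 170 kb. Those 12 gave 44, 12, 18, 16, 14, 18, 13, 25, 15, 39, 11 and 24 peak-library reads and 17, 3, 5, 3, 8, 3, 0, 7, 6, 7, 3 and 8 control-library reads from the nearest to the farthest, and the downstream island gave 15 and 1 reads. The control library came closest to the peak library in the island with 14 and 8 reads. The sum was 264 peak-library and 71 control-library reads, a fold of 1.86 (1.43 to 2.46). Ets1, an ETS-family transcription factor gene of lymphocytes, also had 13, with 283 and 98 reads and a fold of 1.45 (1.15 to 1.84). Its largest island lay 170 kb away with 74 peak-library and 29 control-library reads, and the other 12 held between 9 and 29 peak-library reads.

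**Figure D3:**
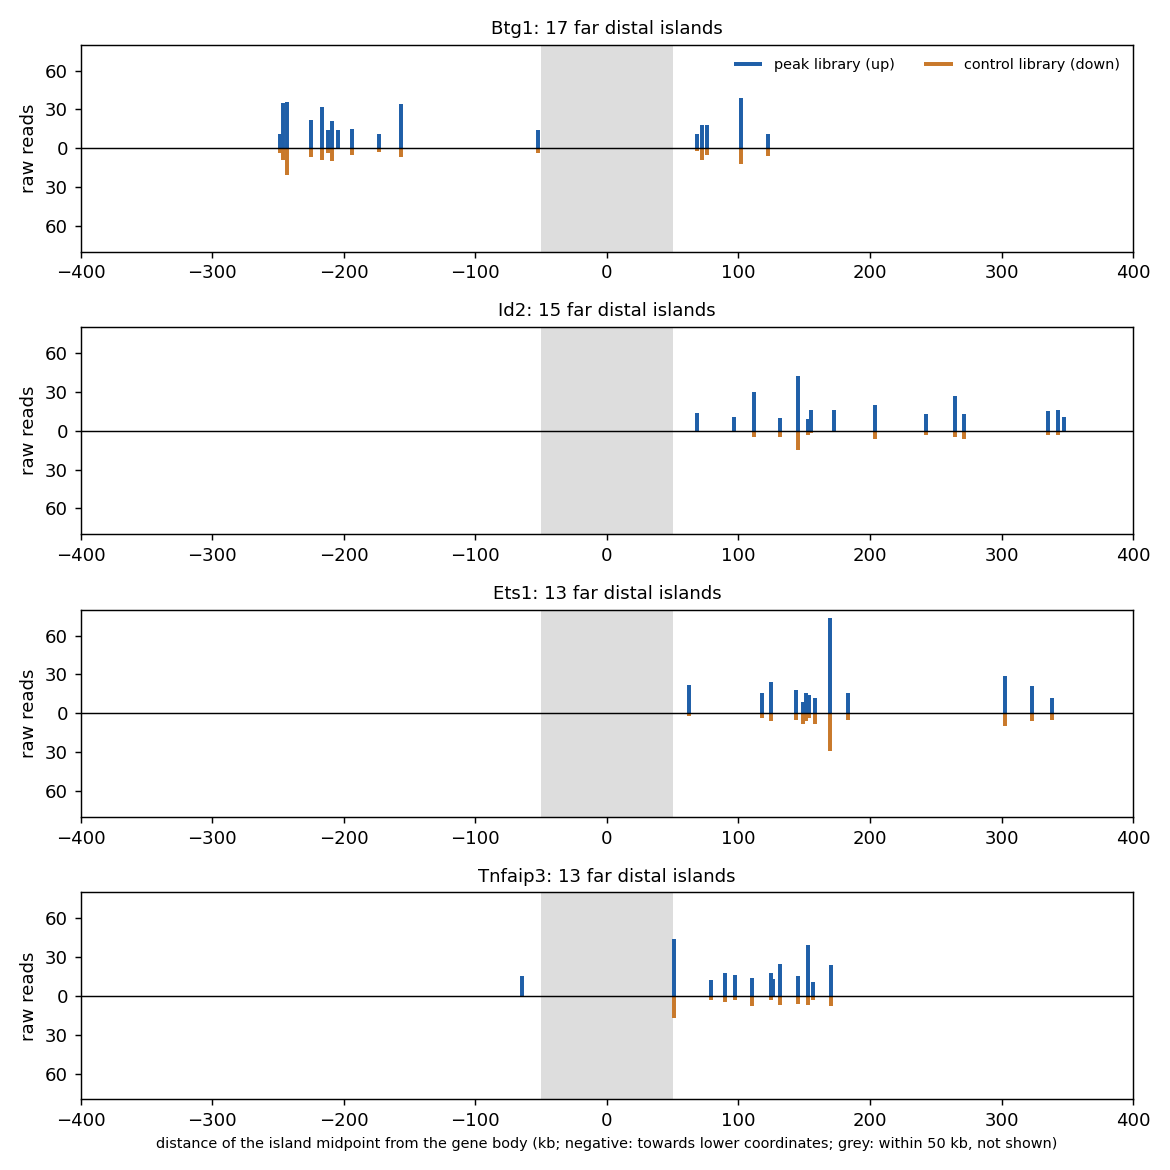
Raw reads of each far distal island nearest to Btg1, Id2, Ets1 and Tnfaip3, with peak-library reads drawn up in blue and control-library reads drawn down in orange, against the distance of the island's midpoint from the gene body in kb. The grey band marks the 50 kb on either side in which islands are not shown. Islands of Id2 and Ets1 all lie on 1 side, 12 of 13 at Tnfaip3 lie on 1 side, and those of Btg1 lie on both.

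Several other genes with many far distal islands have general functions in cells. Atp2b1, a plasma membrane calcium pump gene, had 12 islands, all upstream, with 245 peak-library and 58 control-library reads (fold 2.12, 1.58 to 2.87). Irf2bp2, a transcriptional corepressor gene, had 11 with 214 and 40 reads (fold 2.68, 1.90 to 3.86), and Tomm20, a mitochondrial import receptor gene on the other side of the same space, had 11 with 253 and 75 reads (fold 1.69, 1.30 to 2.22). Stt3b, an oligosaccharyltransferase gene, had 12 (166 and 41 reads), Mkln1 11 (269 and 94), Haao, a gene of tryptophan breakdown, 10 (197 and 55), Rplp1, a ribosomal stalk gene, 10 (193 and 57), Klf14 9 (173 and 55) and Chd2, a chromatin remodeller gene, 8 (207 and 78).

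Myc, the growth-promoting transcription factor gene, had 8 far distal islands, 5 at 117 to 190 kb and 3 at 745 to 834 kb. The nearer 5 held 15, 15, 23, 19 and 11 peak-library and 4, 4, 4, 8 and 2 control-library reads, and the farther 3 held 11, 15 and 10 peak-library and 4, 2 and 4 control-library reads. Counts at both distances were alike in size, and the sum was 119 and 32 reads, a fold of 1.86 (1.25 to 2.84). The single island of Myc within 50 kb held 50 and 30 reads, a fold of 0.835 (0.520 to 1.36). All 5 nearer islands lay in the body of the lncRNA Pvt1, which follows Myc on the chromosome.

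**Figure D4:**
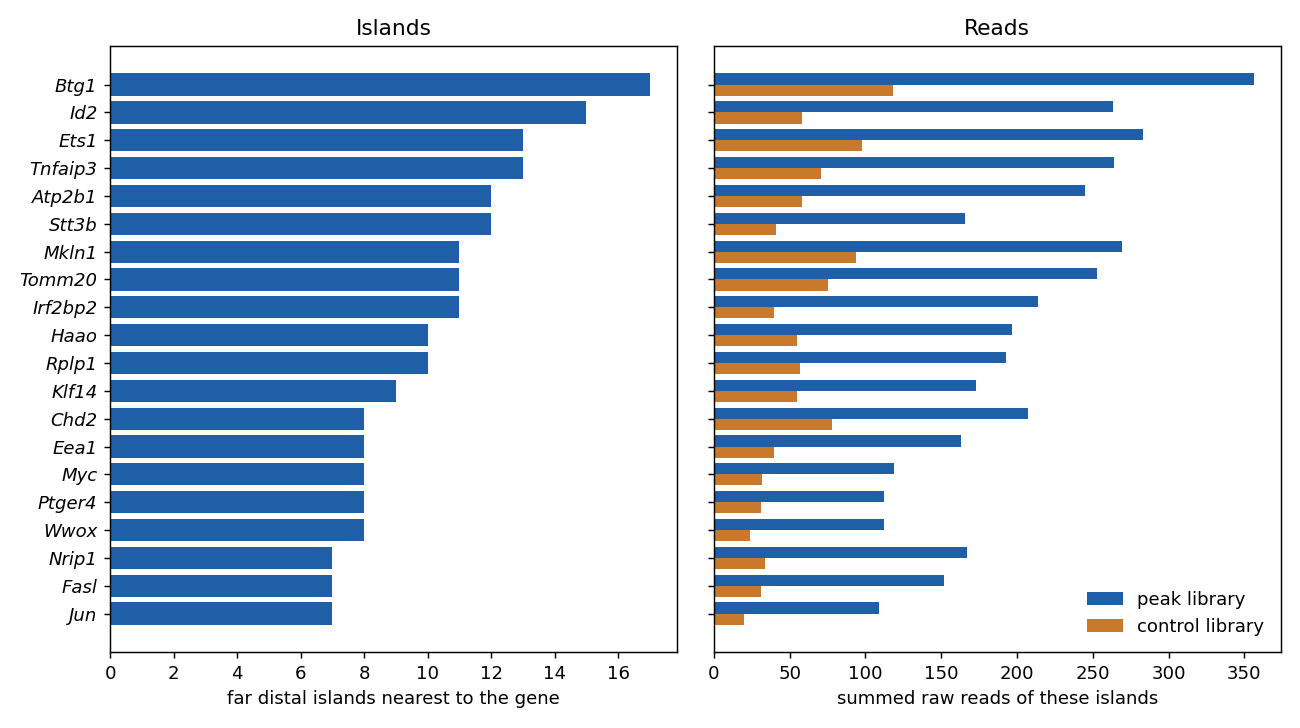
The 20 genes nearest to the most far distal islands. Left, the number of islands, from 17 at Btg1 to 7 at Jun. Right, the summed raw reads of these islands in the peak library (blue) and the control library (orange).

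Many far distal islands lay within 50 kb of another. When neighbouring far distal islands with midpoints within 50 kb were joined, 711 islands (65.5%) fell into 211 clusters and 374 stood alone. Of the clusters, 117 had 2 islands, 59 had 3 or 4 and 35 had 5 or more, and those 35 held 282 islands (26.0%). The distance from 1 far distal island to the next had a median of 73.7 kb with quartiles of 10.6 and 1965 kb. The other nuclear islands lay closer together, 22.9 kb apart at the median with quartiles of 7.4 and 70.8 kb. Their share in such clusters is not given here, so clustering is not shown to be particular to far distal islands.

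The largest cluster lay between Irf2bp2 and Tomm20 (chr8:126651601-126875200), with 22 islands over 224 kb. They held 10 to 39 peak-library and 1 to 20 control-library reads each, 467 and 115 in all (fold 2.03, 1.65 to 2.52). The next lay between Klf14 and Mkln1 (chr6:31033201-31234400) over the lncRNA Lncpint, with 20 islands, 442 and 149 reads (fold 1.49, 1.23 to 1.80). The third lay between Tnfaip3 and Olig3 with 15 islands, 292 and 76 reads (fold 1.92, 1.49 to 2.51). The Id2 cluster, on the side of Rnf144a, had 12 islands over 204 kb with 221 and 52 reads (fold 2.13, 1.57 to 2.94). Clusters of 9 to 12 islands also lay between Stt3b and Gadl1, Eea1 and Btg1, Ccer1 and Atp2b1, Haao and Zfp36l2, Tle3 and Rplp1, and Ets1 and Kirrel3, with folds from 1.33 to 2.18.

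Gene lists chosen for this cell type were counted by how many of their members that border far territory were nearest to a far distal island, beside the 514 of 4773 bordering genes in all (10.8%). The lists and their members were chosen with earlier results of these data known, so the shares describe and do not test. Of the LTi and ILC3 identity genes, 9 of 14 were nearest to one (64.3%), with 35 islands, 579 peak-library and 114 control-library reads and a fold of 2.54 (2.08 to 3.14). Besides Id2, these were Gata3 with 5 islands (85 and 17 reads), Ahr with 4 (58 and 8), Cd83 with 4 (57 and 10), Tox with 3 (46 and 7), and Runx1, Runx3, Maf and Nrp1 with 1 each. Gata3 encodes a zinc finger factor and Ahr a ligand-activated receptor, both needed by innate lymphoid cells of the gut. The largest island of Gata3, 262 kb downstream, held 40 peak-library and 5 control-library reads, and the 4 islands of Ahr stood side by side at 140 to 151 kb with 9, 20, 17 and 12 peak-library and 0, 1, 4 and 3 control-library reads. Both genes thus had peak-library reads several times the control-library reads, in counts that were small. Islands per Mb of far territory came to 7.34 for this list, against 1.07 over all bordering genes. The median far territory per bordering gene was 0.303 Mb in this list and 0.0764 Mb over all bordering genes. The shares of genes were thus not on an equal footing.

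Migration and adhesion genes were next to far distal islands in 7 of 8 cases, with 24 islands and a fold of 1.77 (1.44 to 2.19). Ptger4, a prostaglandin E2 receptor gene, had 8 islands (112 and 31 reads), the chemokine receptor gene Cxcr4 had 5 (107 and 33), the integrin gene Itga4 had 5 (81 and 19) and Rgs1 had 2 (59 and 20). The largest island of Cxcr4, 194 kb away, held 45 peak-library and 8 control-library reads, while another 113 kb away held 19 and 15, so the balance of the libraries differed within this group. Lymphoid transcription factors were so placed in 10 of 20 cases, with 44 islands and a fold of 1.55 (1.35 to 1.79), led by Ets1, Myc, Foxo1 and Bcl6. Foxo1, a forkhead factor gene of lymphocyte survival and homing, had 7 islands with 90 and 39 reads (fold 1.16, 0.785 to 1.73), and Bcl6, a repressor gene, had 5 with 105 and 26 reads.

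Survival and cell cycle genes were nearest to far distal islands in 4 of 8 cases, with 20 islands (fold 1.52, 1.24 to 1.87), of which Btg1 had 17 and Gadd45a, Ccnd2 and Bcl2l11 had 1 each. Cytokine and NF-kB signalling genes also counted 4 of 8 with 20 islands (fold 1.63, 1.32 to 2.01), 13 of them at Tnfaip3, 3 at each of the RNA-binding protein genes Zfp36l1 and Zfp36l2, and 1 at Dusp5. Each of these lists thus rested largely on 1 gene. Of the LTi effector molecules, 1 of 7 was nearest to an island, the cytokine gene Csf2 (18 and 5 reads).

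Of the Wnt pathway genes, 5 of 16 were nearest to a far distal island, with 10 islands and a fold of 0.911 (0.743 to 1.12). The Axin2 island gave 149 of the list's 271 peak-library reads and 125 of its 149 control-library reads. The other members held 50 peak-library and 11 control-library reads in 4 islands at Tle3, a Groucho corepressor gene, 32 and 3 in 2 islands at the beta-catenin gene Ctnnb1, 22 and 5 in 2 islands at Lef1, a relative of Tcf7, and 18 and 5 in 1 island at Tle4. The island of Lef1 that lay 96 kb upstream held 10 peak-library and 0 control-library reads.

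Few markers of other cell types border far territory, and their counts stand beside the same 10.8% of all bordering genes. The counts were 1 of 2 for NK cells and ILC1 (Ifng, 10 and 2 reads), 1 of 5 for ILC2 (Arg1, 15 and 1), 0 of 1 for T cells, 1 of 4 for B cells (Cr2, 111 and 58), 1 of 4 for myeloid cells (Cebpb, 47 and 15), 0 of 1 for epithelial cells and 2 of 8 for stromal and endothelial cells (Dcn, 44 and 15, and Pdgfra, 13 and 1). With so few bordering members these shares have wide intervals, up to 80.6% for B cells. Neuronal adhesion genes, which border the widest spaces of all lists, 58.8 Mb in sum, were nearest to a far distal island in 0 of 34 cases (0 to 10.3%), and developmental transcription factors in 2 of 47 (4.26%, 0.520 to 14.5%). Counting both genes that flank an island, the numbers were 4 and 8. The developmental factors nearest to an island were Lmo4, a LIM-only factor gene, and Sall3. Lmo4 had 6 islands with 101 peak-library and 9 control-library reads, a fold of 5.62 (2.85 to 12.6), and each of the 6 held 11 to 25 peak-library and 0 to 4 control-library reads. Of the housekeeping genes, 1 of 1 was so placed (Ywhaz, 31 and 16 reads).

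**Figure D5:**
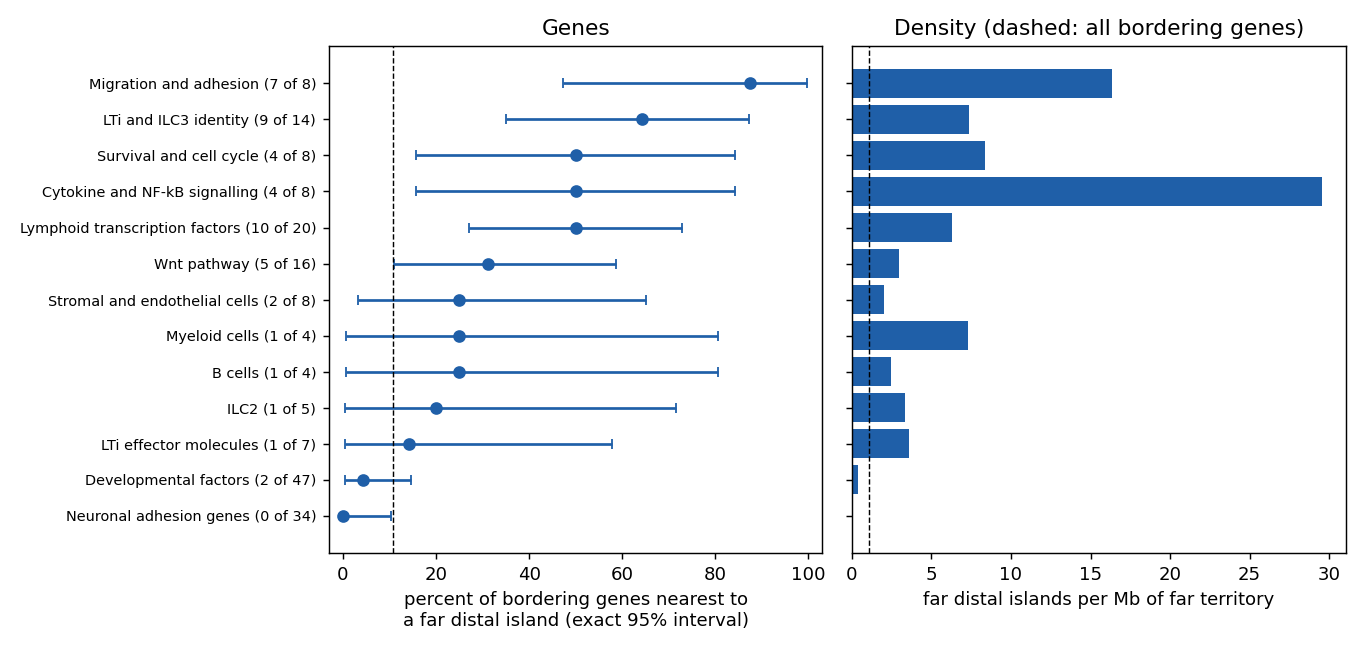
Left, the percent of each list's genes bordering far territory that are nearest to a far distal island, with exact 95% intervals and the counts beside each name, and a dashed line at 10.8% for all bordering genes. Right, far distal islands per Mb of the list's far territory, with a dashed line at 1.07 for all bordering genes. Lists with fewer than 4 bordering genes are not drawn, and the neuronal adhesion genes are at 0 of 34.

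Genes that RefSeq lists under types other than protein-coding, immunoglobulin and T cell receptor segments included, overlapped 379 of the 1085 far distal islands, and lncRNAs alone overlapped 347 (32.0%). Islands in such genes held 6918 peak-library and 1972 control-library reads, a fold of 1.76 (1.67 to 1.85), and islands outside any gene held 12473 and 3058 reads, a fold of 2.04 (1.96 to 2.13), a ratio of 0.860 (0.807 to 0.917). Lncpint, a p53-induced lncRNA gene, had the most, 15 islands with 368 and 137 reads (fold 1.35, 1.10 to 1.65). Gm31718 in the Irf2bp2 and Tomm20 cluster had 10 (235 and 73 reads), Gm20139 beside Tnfaip3 had 8 (156 and 32), Gm39447 beside Stt3b had 8 (108 and 30), the immunoglobulin heavy chain locus had 7 (83 and 19), and Pvt1 had 5 (83 and 22). Firre, an X-linked lncRNA gene, had 5 with 79 and 19 reads. Of microRNA genes, Mir9-2 and, on the opposite strand, Gm51268 overlapped 1 and the same island, with 16 and 7 reads.

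The fold of far distal islands exceeded that of the other islands on 17 of 20 chromosomes, and the interval of the ratio excluded 1 on 13 of them. Chromosome 11 was the 1 chromosome with a ratio below 1 whose interval excluded 1 (0.697, 0.584 to 0.835), and the Axin2 island gave 125 of the 186 control-library reads of its 15 far distal islands. With islands of 50 or more control-library reads left out of both sets, again chosen after seeing the data, the ratio was above 1 on all 20, with chromosome 11 at 1.33 and chromosome 6 lowest at 1.00. Chromosome 10 had the most far distal islands, 127 or 11.6% of its nuclear islands, at 2.85 per Mb of far territory, and 73 of them lay in 9 clusters of 5 or more that included those of Btg1, Tnfaip3 and Atp2b1. Chromosome 11 had 15 (0.816%), chromosome X 21, and chromosome Y 0 of its 3 nuclear islands.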

How the data were processed

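TCF-1 ChIC-seq of mouse LTi cells was analysed from the table of islands that the authors deposited. Bowtie2 2.4.2, SICER 2.0 and the mm10 build are named per the submitters' processing notes. For the window, the gap and duplicate reads, the setting was not given in the sources used here. Per the file headers, the deposited read counts are unscaled whole numbers for each library and island. The fold deposited by the authors is the ratio of peak-library to control-library reads over 1 scaling factor (2.00). In islands without control-library reads a stand-in value takes the place of the control count, so floors of 3 reads were used there. The p-value and FDR per island were also deposited by the authors and treat the control count as known. No value column was left unmapped to a library (0 columns), but none names a sample. A planned use of the genotypes was therefore not possible.

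Island midpoints were set against 21887 RefSeq protein-coding genes of GRCm38.p6 (mm10), counted from 1. A genome sequence was not used here. Pooled folds and their ratios have exact conditional binomial intervals, shares Clopper-Pearson intervals and densities exact Poisson intervals. The exact binomial test per island was two-sided with Benjamini-Hochberg adjustment, and it was tested on simulated data. Python 3.11.15, pandas 2.3.3, numpy 2.4.6, scipy 1.17.1 and matplotlib 3.10.9 were used.

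Islands were named by the 10 highest folds with 20 or more peak-library reads, the 5 highest peak-library and control-library counts, the 3 widest, the 3 farthest, the 5 lowest folds and the adjusted binomial test. Genes were named as the 15 with the most islands and up to 4 members a list, and clusters as the 10 largest. Further list members, near islands, the printed windows and the noncoding and microRNA genes, most of them those with the most islands, were named after their values were seen. The 17 lists, the members and the rules were chosen with earlier results of these data known. Alternatives changed the distance, the genes considered, the read limits, the scaling, the linkage, the FDR and the chromosomes.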

Additional observations from a re-analysis of the deposited data

How the results depend on the processing

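The far distal fold and its excess over the other islands turned over under 1 setting. With no upper limit on peak-library reads, the pooled fold was 0.945 and the ratio to the other islands 0.598, since 8 islands with up to 28574 peak-library reads enter. The number of islands was 1794 beyond 25 kb, 550 beyond 100 kb, 159 when all gene types were considered and 283 with at least 20 peak-library reads. The pooled fold was 2.32 with all gene types, 1.64 with at least 20 reads, 1.51 with the totals of the table set equal, 3.86 unscaled and 2.08 without islands of 50 or more control-library reads, an alternative chosen after seeing the data. The ratio to other islands was 1.44, 1.11 and 1.29 with all gene types, at least 20 reads and without those islands. The percent at FDR 0.05 or less was 80.5 with all gene types, and 31.3 passed 1e-05. The percent in clusters was 49.1 with all gene types, 43.8 with at least 20 reads, 38.2 at a linkage of 10 kb and 72.6 at 100 kb. The density ratio was 0.125 beyond 25 kb, 0.0697 beyond 100 kb, 0.0376 with all gene types, 0.0680 with at least 20 reads, 0.105 without chromosomes X and Y and 0.0904 without chromosome 10. The binomial test called 297 islands unadjusted and 2 with equal totals, against 10. Counting both flanking genes gave 3 LTi effector, 2 B cell, 2 myeloid, 4 neuronal adhesion and 8 developmental genes. With equal totals, an alternative chosen after seeing the data for genes, the fold was 1.18 at Btg1, 1.13 at Ets1, 1.12 at Mkln1, 1.32 at Rplp1, 1.23 at Klf14, 1.04 at Chd2 and 1.46 at Myc, each with an interval that reached 1. Why these values moved was not tested beyond how each setting is built. No paired analysis was possible because each group has 1 library and the columns name no sample. Counts of 7 to 20 reads per island limit single islands, and the genotypes could not be compared.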
